A study of Cavia porcellus with 34 samples.

Results

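The syntenins and syndecans are a family of adaptors and the cell-surface proteoglycans that they bind. The 6 genes described here are SDCBP (syntenin-1), SDCBP2 (syntenin-2) and the syndecans SDC1, SDC2, SDC3 and SDC4. They were chosen by gene symbol, and the family was selected on the higher level of SDCBP2 in F3 animals, so every F3 value of these genes is a description without a test. Of 12592 gene symbols in the series, these 6 were found. In F1 all 6 are listed among 12114 rows, in F2 they are 5 of 12207 (SDC1 is not listed) and in F3 again 6 of 12068. All listed members passed the filter of a mean of at least 10.

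Pregnant F0 Dunkin-Hartley guinea pigs received either the synthetic glucocorticoid betamethasone (sGC, called Beta in the labels) or a saline vehicle (Veh, called Control). Their female F1 offspring and female F2 and F3 descendants through the paternal line were studied on postnatal day 40. The F1 animals were thus exposed in utero, F2 animals as the germ cells of their F1 father, and F3 animals not directly. RNA came from punches of the hypothalamic paraventricular nucleus (PVN), whose neurons start the hormonal stress response, with 5 Veh and 5 sGC animals for F1, 5 and 5 for F2, and 6 and 6 for F3. A punch holds every cell type of the nucleus and some adjacent hypothalamus, so more cells of a type and more RNA per cell cannot be told apart. No group carries a transgene, and each library is from 1 animal. In F3, 2 of the 6 sGC libraries and no Veh library used here came from a second sequencing batch. Second libraries of 2 Veh animals from that batch were not analysed here.

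Syntenins are scaffold proteins with a pair of PDZ domains. Syntenin-1 holds the short cytoplasmic tails of syndecans, and through ALIX it links them to the machinery that buds vesicles into endosomes, a route to exosomes. Syntenin-2 is a close relative that binds membrane phosphoinositides through its PDZ domains. Syndecans carry heparan sulfate chains that hold growth factors and matrix proteins at the cell surface, and proteases can shed their ectodomains. SDC3 is the main syndecan of neurons, and in the hypothalamus it is known as a partner of the melanocortin system that controls feeding.

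The values are the normalized counts that the authors deposited, which sum to 15.6 to 21.9 M per animal in F1, 15.6 to 19.4 M in F2 and 18.7 to 19.0 M in F3. The median SD within groups was 0.21 on the log2 scale in F1, 0.16 in F2 and 0.08 in F3, so an effect of a given size stands out more in the F3 table. All 6 listed PVN neuron markers (AVP, OXT, CRH, TRH, SIM1, OTP) were above 0 in every animal. Their sum, mainly vasopressin and oxytocin, ranged from 91185 to 208706 normalized counts in F1 Veh and from 20619 to 180690 in F1 sGC, where 3 of 5 animals were below every Veh animal. In F2 it ranged from 57323 to 96811 in Veh and from 77048 to 170654 in sGC, where all animals but SGM21 were above every Veh animal. In F3 it ranged from 13842 to 50053 in Veh and from 19435 to 34072 in sGC. Fold changes are differences of log2(value + 1), sGC minus Veh, from limma, with Benjamini-Hochberg adjustment over all genes of a table. Each generation was normalized apart, so levels set side by side across generations are not on a shared scale.

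SDCBP2 was the member that differed most between the groups in F3. The 6 Veh animals ranged from 73 to 105 normalized counts with a median of 82. The 6 sGC animals ranged from 158 to 248 with a median of 176. The lowest sGC animal was above the highest Veh animal. The means were 86.3 ± 14.0 (SD, n = 6) and 186.5 ± 33.9 (SD, n = 6), a ratio of 2.16. The log2 fold change was 1.10 with a standard error of 0.12. In the first sequencing batch alone it was 1.09 with a standard error of 0.14. The 2 sGC animals of the second batch had 201 and 174 normalized counts, inside the range of the other sGC animals. The authors had already corrected the F3 values between the 2 batches, so these values cannot show what part batch had in the difference. Leaving out each animal in turn gave 1.01 to 1.16, which describes the contrast that selected the family. SDCBP2 was the only one of the 6 members whose F3 groups did not overlap, beside 1.21% of the 11866 genes tested. The contrast that the choice of the family rests on called 6 genes (0.0506%), and no call of a member is given for F3. Both counts come from the contrast that selected the family, and nothing is read from them.

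**Figure D1:**
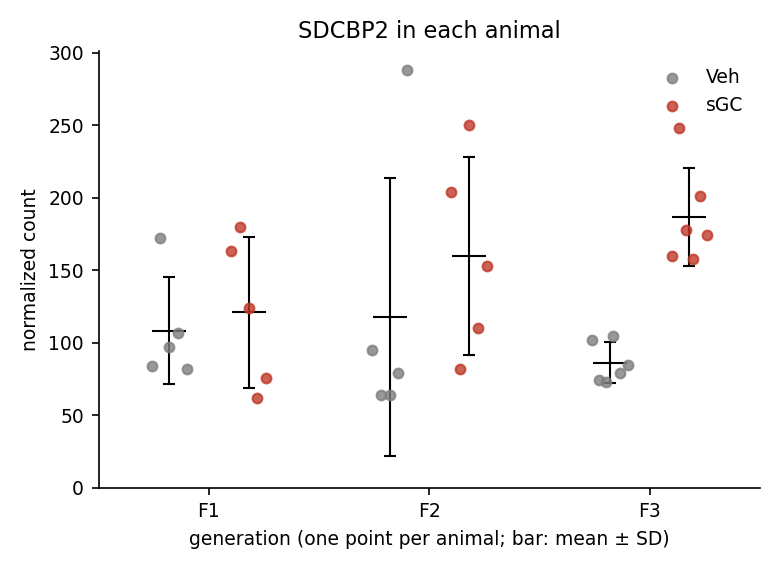
SDCBP2 normalized counts (y axis) of each animal in F1, F2 and F3 (x axis), with Veh in grey and sGC in red. Bars give the mean ± SD of each group, and the generations were normalized apart. The F3 groups are separate (73 to 105 against 158 to 248), while the F1 and F2 groups overlap.

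In F1, no difference of SDCBP2 between the groups was detected. The Veh animals had 84, 172, 97, 107 and 82 normalized counts. The sGC animals had 163, 180, 124, 62 and 76. Both the lowest and the highest of the 10 animals were sGC. The means were 108.4 ± 37.0 (SD, n = 5) in Veh and 121.0 ± 51.9 (SD, n = 5) in sGC. The log2 fold change was 0.10 with a 95% interval of -0.45 to 0.64 (limma, adjusted p = 0.912). The direction is not fixed by these animals: without sGC animal SGM8 the value was -0.08, without sGC animal SGM4 it was -0.04, and it was -0.03 with quantile normalization.

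In F2, the point estimate lay between those of F1 and F3 and the spread was the widest. The Veh animals had 95, 64, 64, 79 and 288 normalized counts. The sGC animals had 204, 82, 250, 110 and 153. The highest of all 10 animals was Veh animal SGM29, and 4 of the 5 sGC animals were above the Veh mean on the log2 scale. The means were 118.0 ± 95.9 (SD, n = 5) in Veh and 159.8 ± 68.3 (SD, n = 5) in sGC. The F2 difference was 0.59 in log2 with a 95% interval of -0.26 to 1.45 (limma, adjusted p = 0.577). Without SGM29 it was 0.98. The adjusted p-value was between 0.365 and 0.842 over the 17 alternatives tried. In SGM29, the sums of the neuron, astrocyte, oligodendrocyte, microglia, endothelium and mural markers were all inside the range of the other F2 Veh animals. Its PVN neuron sum of 57323 was the lowest of the F2 animals, and all sGC animals but SGM21 had sums above every Veh animal. The part of PVN neurons in the F2 levels of SDCBP2 was not tested.

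The fold change of SDCBP2 in F1 minus that in F2 was -0.50 with a 95% interval of -1.58 to 0.58 (limma interaction, adjusted p = 0.694). No difference between F1 and F2 was detected, and the interval allows one of more than 1 in log2. It was -0.88 without SGM29. Of the 5 members tested in both generations, none differed between F1 and F2 at an adjusted p-value under 0.05, beside 1.37% of the 11612 genes tested. None had an unadjusted p-value under 0.05 either. The share of all genes at that level was not computed, so nothing is read from this count.

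SDCBP2 was among the more variable genes of each table. Its SD within groups on the log2 scale was 0.56 in F1, larger than that of 95.7% of genes tested. It was 0.78 in F2, larger than that of 98.3%, and 0.23 in F3, larger than that of 89.7%.

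SDCBP, which encodes the widely expressed syntenin-1, did not pass the test in F1 or F2. Levels were not compared between genes, since transcript lengths were not used here. In F1, its means were 3590 ± 583 (SD, n = 5) in Veh and 3571 ± 320 (SD, n = 5) in sGC. The F1 difference was 0.00 in log2 with a 95% interval of -0.25 to 0.26 (limma, adjusted p = 0.996). In F2, the means were 3550 ± 367 (SD, n = 5) and 3283 ± 313 (SD, n = 5), a difference of -0.11 in log2 with a 95% interval of -0.30 to 0.08 (limma, adjusted p = 0.627). In F3, Veh animals ranged from 3516 to 3729 with a median of 3641. The F3 sGC animals ranged from 3560 to 3881 with a median of 3712, and the log2 fold change was 0.03 with a standard error of 0.03. The groups overlapped in all 3 generations. The F3 spread of SDCBP was small, with a coefficient of variation of 2.03% in Veh and 3.48% in sGC.

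The genes that flank SDCBP2 were examined next. In the RefSeq gene order of the guinea pig assembly mCavPor4.1, PSMF1, TMEM74B, RAD21L1 and SNPH lie on one side of SDCBP2 and FKBP1A, NSFL1C and SIRPB2 on the other. The files use the older build cavPor3, so only the order was taken from this assembly and no coordinates are given. SIRPB2 is not listed in any table and RAD21L1 is not listed in F3. In F3, the log2 fold changes of the 5 flanking genes tested ran from -0.14 for FKBP1A to 0.02 for NSFL1C. FKBP1A, the next protein-coding gene, encodes the immunophilin FKBP12. It had 5868 normalized counts on average in F3 Veh (5567 to 6160) and 5331 in F3 sGC (5037 to 5916), and its log2 fold change had a standard error of 0.038. The 2 ranges overlapped. SNPH, the neighbour on the other side, encodes syntaphilin, which anchors mitochondria in axons, and its F3 log2 fold change was -0.01. NSFL1C, the p97 cofactor p47, and PSMF1, an inhibitor of the proteasome, had F3 values of 0.02 and -0.02.

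In F1, the flanking genes tested had log2 fold changes from -0.21 (RAD21L1, a meiotic cohesin subunit with means of 13.4 in Veh and 11.2 in sGC) to 0.14 (TMEM74B). In F2, all 5 tested were lower in sGC on the deposited scale, down to -0.28 for FKBP1A, while NSFL1C and TMEM74B turned slightly higher with size factors, equal totals or quantile normalization. The median of these 5 was -0.09, beside -0.08 for all genes tested, and none had an adjusted p-value under 0.05. FKBP1A in F2 had 5533 normalized counts in Veh and 4586 in sGC on average (limma, adjusted p = 0.312). RefSeq places a long noncoding RNA gene over SDCBP2 in mCavPor4.1. The library kit does not keep the strand, so reads from 2 overlapping genes cannot be told apart.

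**Figure D2:**
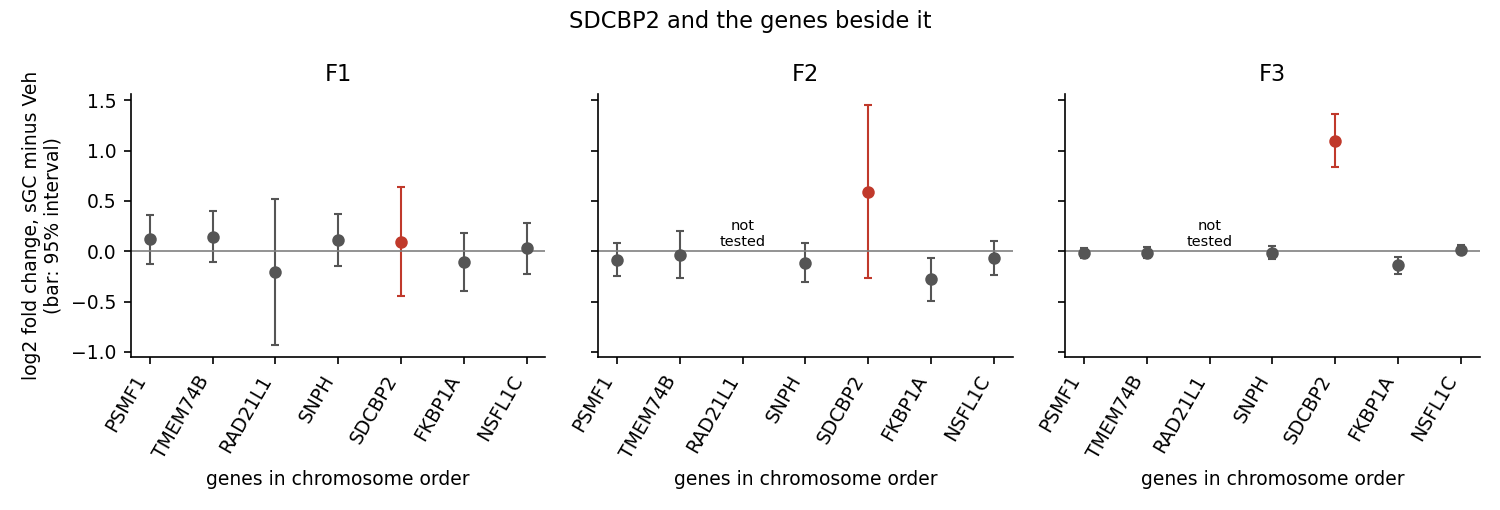
Log2 fold change, sGC minus Veh, of SDCBP2 (red) and the flanking genes (grey), in the gene order of mCavPor4.1, with 1 panel per generation. Bars are 95% intervals from limma, and RAD21L1 was tested in F1 only. The F3 value of SDCBP2 chose the family, so its F3 bar is a description and not a test. SDCBP2 stands at 1.10 in F3, where the flanking genes lie between -0.14 and 0.02.

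The genes whose F3 levels varied most like SDCBP2 were sought after subtracting each group mean, over 12 animals and 10942 genes with a mean of at least 50. The 5 highest Pearson correlations were those of FCER1G (r = 0.92), SYTL4 (0.91), TEX2 (0.91), ZNF318 (0.91) and TRUB1 (0.91). FCER1G encodes the signalling chain of Fc receptors in microglia and other myeloid cells, and SYTL4 encodes granuphilin, a RAB27 effector on secretory granules. In F2, none of the 5 had a correlation over 0.46 with SDCBP2, and FCER1G had 0.07. In F1 the correlations ran from 0.24 for ZNF318 to 0.79 for FCER1G. The F3 animals share 1 normalization, and 10 genes reached the size of the fifth correlation with either sign. The F3 log2 fold changes of these 5 genes were between -0.05 and 0.27, the highest that of FCER1G, beside 1.10 for SDCBP2.

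SDC1, the syndecan of epithelia and plasma cells, was near the lower end of detection. In F1, the Veh animals had 8, 19, 13, 17 and 13 normalized counts. The sGC animals had 103, 18, 2, 33 and 12. The sGC group held both the highest animal, SGM4, and the lowest, SGM12. The difference was 0.41 in log2 with a 95% interval of -0.79 to 1.61 (limma, adjusted p = 0.829). It was -0.20 without SGM4 and 1.08 without SGM12, so 1 animal decides its direction. In F3, the Veh animals had 11 to 21 normalized counts and the sGC animals 14 to 20, with medians of 16.5 and 16.

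Animal SGM4 also had the most RNA of vessel markers. Its mural cell markers (RGS5 and TAGLN, 2 of 5 listed) summed to 12571 normalized counts, beside 3868 to 5801 in the other F1 sGC animals and 2724 to 4263 in F1 Veh. Its endothelium sum (6 of 6 listed) was 9137, beside 4114 to 8034 in the other 9 animals. The single fibroblast marker listed, LUM, stood at 748 in SGM4 and at 144 to 306 elsewhere. The single epithelial marker listed, CDH1, stood at 347 in SGM4 and at 39 to 202 elsewhere. Its PVN neuron sum of 20619 was the lowest of the 10 animals. The part of these cell types in its SDC1 level was not tested.

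**Figure D3:**
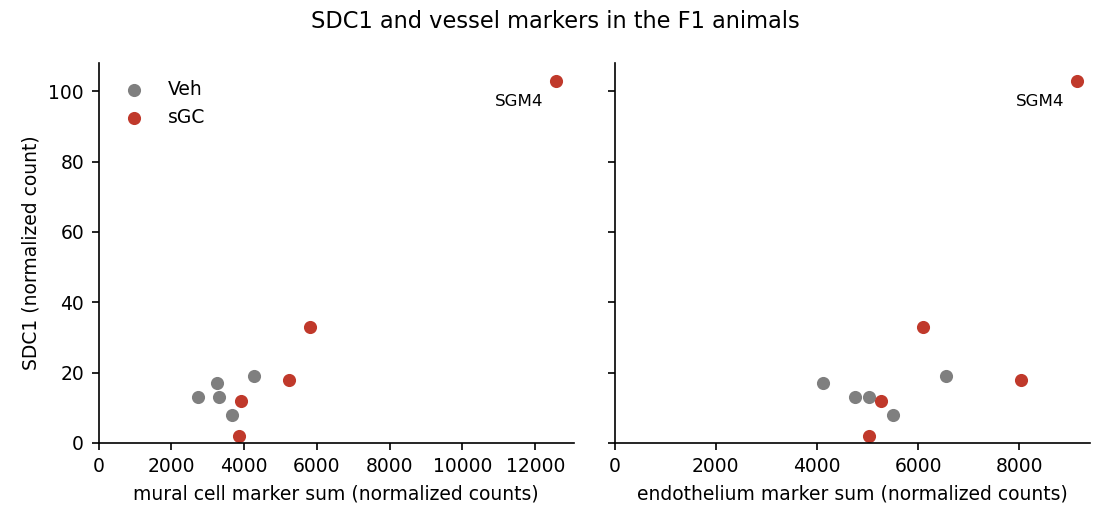
SDC1 normalized counts (y axis) of the 10 F1 animals against the summed normalized counts of mural cell markers (left x axis) and endothelium markers (right x axis), with Veh in grey and sGC in red. Animal SGM4 is highest on all 3 axes, with 103 for SDC1, 12571 for mural markers and 9137 for endothelium markers.

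SDC2, found on glia, fibroblasts and dendritic spines, was on average lower in sGC in F1 and F2 and higher in F3, with no difference past the threshold in F1 or F2. In F1, the Veh animals had 3056, 4175, 3280, 3498 and 2883 normalized counts. The sGC animals had 3484, 2799, 2875, 2811 and 2468. All but 1 of the sGC animals, SGM4, were below every Veh animal. The means were 3378 ± 502 (SD, n = 5) in Veh and 2887 ± 369 (SD, n = 5) in sGC. The log2 fold change was -0.22 with a 95% interval of -0.48 to 0.03 (limma, adjusted p = 0.456). This call depends on the scale of the animals: with median-of-ratios size factors it was -0.29 (adjusted p = 0.0465) and with quantile normalization -0.30 (adjusted p = 0.0413), against an adjusted p-value of 0.0413 to 0.679 over 17 alternatives. With size factors, 1 of the 6 members passed, beside 17.3% of all genes, and with quantile normalization 1 of 6, beside 17.5%.

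In F2, SDC2 had 3333, 3072, 3178, 2699 and 2903 normalized counts in Veh. It had 2824, 2921, 3026, 2683 and 2752 in sGC. All 5 sGC animals were below the Veh mean, yet the ranges overlapped, and the log2 fold change was -0.09 with a 95% interval of -0.25 to 0.06 (limma, adjusted p = 0.613). The median of all genes was -0.08 on this scale, and SDC2 was at -0.020 with size factors, -0.0099 with equal totals and -0.0055 with quantile normalization. In F3, the Veh animals ranged from 3239 to 3652 with a median of 3455. The F3 sGC animals ranged from 3571 to 3892 with a median of 3695. All 6 sGC animals were above the Veh mean, the ranges overlapped, and the log2 fold change was 0.10 with a standard error of 0.03 (0.11 in the first sequencing batch alone).

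SDC3, the neuronal syndecan, was lower in every F2 sGC animal than in every F2 Veh animal on the deposited scale, with no call. In F1, its means were 13349 ± 1438 (SD, n = 5) in Veh and 12905 ± 1406 (SD, n = 5) in sGC. The F1 log2 fold change was -0.05 with a 95% interval of -0.30 to 0.20 (limma, adjusted p = 0.905). In F2, the Veh animals had 25503, 27589, 25888, 25469 and 27286 normalized counts. The F2 sGC animals had 24530, 23832, 24013, 21432 and 22500. The difference was -0.18 in log2 with a 95% interval of -0.34 to -0.02, and it did not pass over all genes (limma, adjusted p = 0.384). On the scale of median-of-ratios size factors it was -0.11, and with quantile normalization -0.03, so its size depends on the scale of the animals. The adjusted p-value was between 0.305 and 0.873 over 17 alternatives.

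SDC3 was the only member whose F2 groups did not overlap, 1 of 5, beside 2.4% of the 11965 genes tested. No member was without overlap in F1, where 2.04% of genes were. Markers of oligodendrocytes and of their precursors were also separate in F2. The oligodendrocyte sum (5 of 5 listed, including MBP) ran from 67397 to 132148 normalized counts in F2 Veh and from 35091 to 59171 in F2 sGC. The precursor sum (3 of 4 listed) ran from 5378 to 7410 and from 3796 to 5077. The sum of neuron markers overlapped, from 54458 to 75972 in F2 Veh and from 50885 to 70599 in F2 sGC. The PVN neuron sum, from 57323 to 96811 in F2 Veh and from 77048 to 170654 in F2 sGC, overlapped through sGC animal SGM21 only. The part of these cell types in the SDC3 values was not tested. In F3, SDC3 ranged from 25498 to 27343 in Veh and from 26152 to 28795 in sGC, with medians of 27151 and 27354.

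The F1 level of SDC3 stood apart from the later generations. The Veh median was 13103 normalized counts in F1, 25888 in F2 and 27151 in F3, ratios of 1.98 and 2.07 to F1. Of 11429 genes tested in all 3 tables, 6.35% had a Veh median at least as far from F1 in F2, and 4.75% in F3. For the other members listed in every table, these ratios ran from 0.81 to 1.05. The tables were normalized separately, so generation and table cannot be told apart.

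SDC4, a syndecan of focal adhesions that astrocytes also make, did not pass the test in F1 or F2. Its means were 2891 ± 445 (SD, n = 5) in F1 Veh and 2688 ± 427 (SD, n = 5) in F1 sGC, a difference of -0.11 in log2 with a 95% interval of -0.38 to 0.17 (limma, adjusted p = 0.799). In F2 they were 2584 ± 339 (SD, n = 5) and 2621 ± 179 (SD, n = 5), a difference of 0.03 in log2 with a 95% interval of -0.17 to 0.23 (limma, adjusted p = 0.914). The F3 medians were 2777 in Veh and 2687 in sGC, with a log2 fold change of -0.04.

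**Figure D4:**
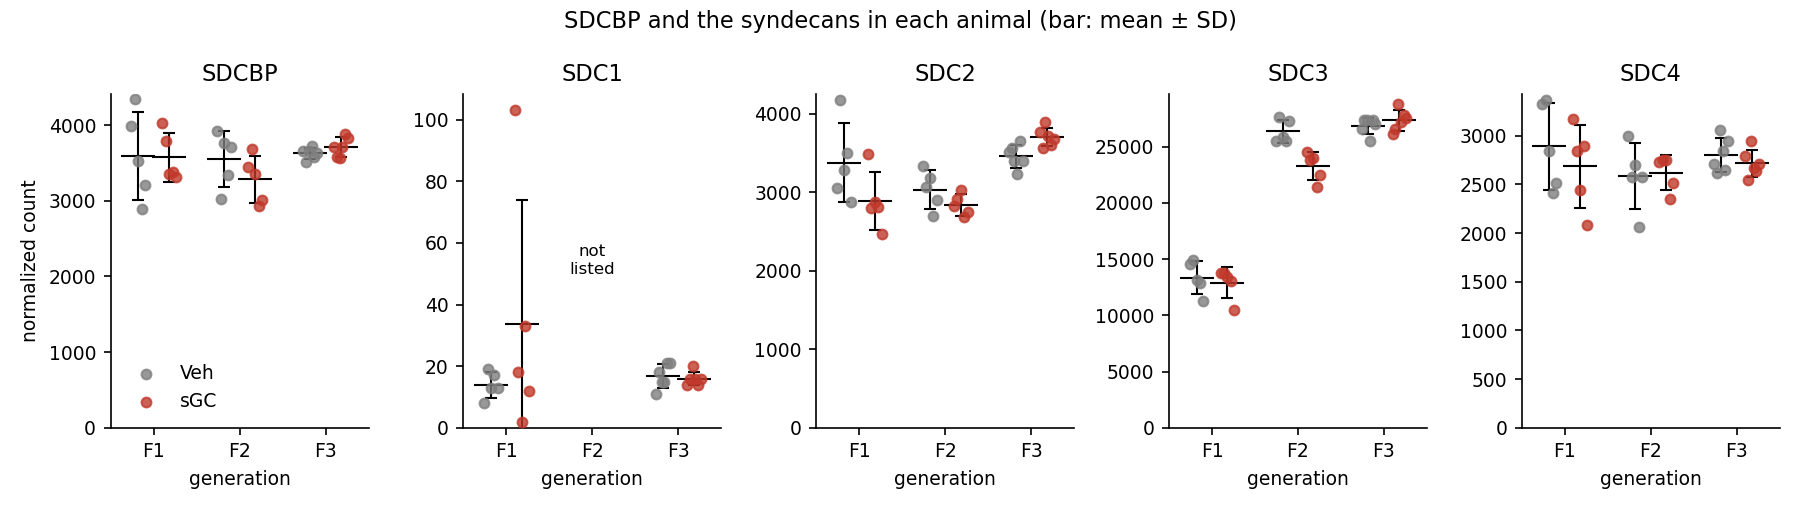
Normalized counts (y axis) of SDCBP and the 4 syndecans in each animal by generation (x axis), with Veh in grey, sGC in red and bars for the mean ± SD. The lower end of the F1 sGC bar of SDC1 is cut at 0, and SDC1 is not listed in F2. The F2 groups of SDC3 are separate (25469 to 27589 against 21432 to 24530), and the other groups shown overlap.

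Across the family, 0 of 6 members had an adjusted p-value under 0.05 in F1 with limma, beside 0.657% of the 11874 genes tested (78 genes). None of the 6 had an unadjusted p-value under 0.05, beside 1611 of all genes. In F2, 0 of 5 passed, beside 0% of the 11965 genes tested, and 1 of 5, SDC3, had an unadjusted p-value under 0.05, beside 1395 of all genes. Other settings called 42 genes in F2 (quantile normalization) and 17 (a mean of 50 or more), with no member among them. For SDCBP, SDC2, SDC3 and SDC4 in F1 and F2, the 95% intervals reach no farther than 0.48 in log2 on either side. For SDCBP2 in F2 and SDC1 in F1 they reach to 1.45 and 1.61.

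**Figure D5:**
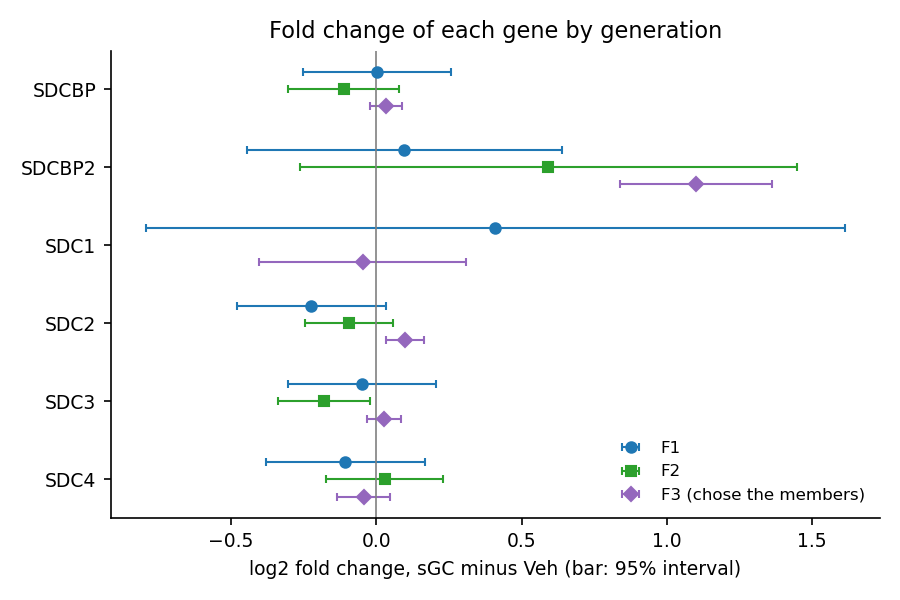
Log2 fold change, sGC minus Veh (x axis), of each of the 6 genes (y axis) in F1 (circles), F2 (squares) and F3 (diamonds). Bars are 95% intervals from limma. The F3 values chose the members, so the F3 bars are a description and not a test. The F3 value of SDCBP2 at 1.10 is the farthest from 0, and in F1 and F2 every interval but that of SDC3 in F2 holds 0.

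Within groups, the members varied together in F1 more than in the other tables. Over the 10 F1 animals, the correlation of log2 values after subtracting group means was 0.85 between SDCBP and SDC4, 0.85 between SDC3 and SDC4 and 0.71 between SDCBP2 and SDC2. The values of an animal share its total, which was not equalized in F1, and the part of this in the correlations was not tested. In F2, SDC2 and SDC4 had 0.93 over 10 animals, and SDCBP2 had at most 0.37 with any other member. In F3, where totals were nearly equal, SDCBP2 had -0.55 with SDC2 and 0.10 with SDCBP over 12 animals. No pair kept a correlation above 0.6 in all 3 generations.

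The counts of higher and lower genes in the lists that follow are on the deposited scale, where the median of all genes was 0.07 in F1 and -0.08 in F2. Size factors moved these medians to 0.00334 and -0.00203. Of all genes, 17.3% passed in F1 with size factors and 17.5% with quantile normalization, and the list calls given for these scales stand beside those shares. Among proteins that work with syntenins, 1 gene passed in F1 on the deposited scale, and 3 of 10 (NFASC, NRXN2 and NRXN3, all higher) on either of the other scales. NRXN3, a presynaptic neurexin whose tail binds PDZ proteins, rose from 390.8 normalized counts (217 to 485) in Veh to 872.8 (582 to 1109) in sGC, and every sGC animal was above every Veh animal. Its log2 fold change was 1.18 ± 0.19 (standard error; limma, adjusted p = 0.00629), and the adjusted p-value was between 0.0011 and 0.0158 over 17 alternatives. The PVN neuron sum was below every Veh animal in sGC animals SGM4 (20619), SGM8 (30689) and SGM20 (44930), and the oligodendrocyte sum was above every Veh animal in SGM4 (64038), SGM8 (96289) and SGM20 (45889). The NRXN3 value was 1.19 without SGM4, 1.14 without SGM8 and 1.32 without SGM20, and the part of these cell types in it was not tested. In F2 it was 0.06 (limma, adjusted p = 0.929) and in F3 -0.10. The F1 value minus the F2 value was 1.12 with a 95% interval of 0.39 to 1.85, which did not pass (limma interaction, adjusted p = 0.115). It was 1 of 10 tested in a list of other syntenin binding proteins, of which 9 were higher and 1, EFNB3, lower in F1. The list's F1 median was 0.17, beside 0.07 for all genes.

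The exosome partners of syntenin-1 gave no call on the deposited scale. Of 11 tested in F1, 6 were higher and 5 lower, with a median of 0.06. PDCD6IP, which encodes ALIX, had 1339 normalized counts in Veh and 1664 in sGC in F1 (log2 fold change 0.32, limma, adjusted p = 0.215), and it passed without Veh SGM7 (0.40). CHMP4B, an ESCRT-III subunit, had the lowest F1 value, -0.14 (limma, adjusted p = 0.675). With size factors both passed in F1, PDCD6IP at 0.26 (limma, adjusted p = 0.00261) and CHMP4B at -0.20 (limma, adjusted p = 0.0103), and the list then held 4 higher and 7 lower genes. Of 12 tested in F2, 2 were higher and 10 lower, with a median of -0.09, close to that of all genes, and 4 and 8 with size factors. In F3 the median was 0.02 over 11 genes.

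The partners and enzymes of syndecans gave no call on that scale either, while size factors called 3 of the 12 partners higher in F1 (ACTN4, CASK and PRKCA), beside 17.3% of all genes, and quantile normalization 2 (ACTN4 and CASK). Of 12 cytoplasmic partners, 9 were higher and 3 lower in F1, from -0.10 for GIPC1, the synectin that binds syndecan tails, to 0.37 for the actin crosslinker ACTN1, with a median of 0.16. In F2, 10 of 12 were lower, with a median of -0.09, and 6 of 12 with size factors. Of 11 genes of syndecan shedding in F1, 9 were higher, with a median of 0.14. The matrix metalloproteinase MMP2 had 261 normalized counts in Veh and 494 in sGC (limma, adjusted p = 0.369), where sGC animals ran from 216 to 1225, and its log2 fold change of 0.62 was 0.22 without SGM4. The sheddase ADAM10 had a log2 fold change of -0.01. In F2, 7 of 10 were lower, with a median of -0.09, and 6 of 10 with size factors.

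No other heparan sulfate proteoglycan passed the threshold on the deposited scale, and GPC5 and HSPG2 did, both higher in F1, with size factors (2 of 12). COL18A1, a vessel basement membrane collagen, had 669 normalized counts (600 to 776) in F1 Veh and 1310 (746 to 2639) in F1 sGC, or 0.80 higher in log2 (limma, adjusted p = 0.11). Without SGM4 the value was 0.50, and it passed without SGM12 (0.95) or SGM16 (0.93). In F2 it had the opposite direction, 1415 (1053 to 1757) in Veh and 948 (851 to 1200) in sGC, with -0.57 (limma, adjusted p = 0.0993), and it passed without Veh SGM28 (-0.67). The F1 value minus the F2 value was 1.36 with a 95% interval of 0.69 to 2.04 (limma interaction, adjusted p = 0.0402, and 0.016 to 0.0931 over 22 alternatives). In 15 of these alternatives the difference was no longer past the threshold. SPOCK3, a brain proteoglycan of the testican group, had the lowest F1 value, -0.08. Of 12 tested, 9 were higher in F1 (median 0.15) and 8 lower in F2 (median -0.11), where size factors gave 6 lower.

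Most heparan sulfate enzymes and ligands had higher values in sGC in F1 and lower values in F2 on the deposited scale, but with size factors chain synthesis turned to 5 higher and 6 lower in F1, and modification to 7 and 7 in F2. In chain synthesis, 7 of 11 were higher in F1 (median 0.05) and 10 of 11 lower in F2 (median -0.10), with XYLT1, which starts the chain, at 0.25 and B3GAT3, which completes the linker, at -0.18 in F1. In chain modification, 13 of 14 were higher in F1 (median 0.20, and 11 of 14 with size factors) and 10 of 14 lower in F2 (median -0.09). SULF1, which removes sulfate from finished chains, had 671 normalized counts (433 to 800) in F1 Veh and 969 (853 to 1083) in F1 sGC, ranges that did not overlap (log2 fold change 0.56, limma, adjusted p = 0.0818), and it passed without Veh SGM7 (0.61). With size factors SULF1 passed at 0.49 (limma, adjusted p = 0.0207) and B3GAT3 at -0.25 (limma, adjusted p = 0.00855). Of the 14 modification genes, 3 then passed in F1, all higher (GLCE, NDST1 and SULF1), beside 17.3% of all genes. Of the 25 ligands and receptors, 2 passed higher and 1 lower (FGF13, NRP1 and SLIT2). On the deposited scale SUMF1, which activates sulfatases, had an F1 value of -0.11. Of 25 ligands and receptors, 18 were higher in F1 (median 0.23) and 15 of 23 lower in F2 (median -0.14), with 17 and 13 under size factors. Fibronectin, FN1, had 1656 normalized counts in F1 Veh and 3165 in F1 sGC, where the sGC animals ran from 1494 to 6949 (limma, adjusted p = 0.181) and SGM4 was the highest. Its log2 fold change of 0.72 was 0.38 without SGM4. Tenascin C, TNC, had an F1 value of -0.14.

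In all, 1 of the 114 list genes passed the F1 test, beside the same 0.657% of all genes, and none passed in F2 with limma. With size factors in F1, 17 of 114 passed, 14 higher and 3 lower, beside 17.3% of all genes. The melanocortin genes on which SDC3 is known to bear gave no call. Only 2 of the 5 were listed and tested in F1, so AGRP, MC3R and NPY are not covered there. In F1, POMC, the precursor of the melanocortins, ranged from 102 to 1372 normalized counts in Veh, with the highest in SGM7, and from 150 to 518 in sGC. Its log2 fold change of 0.0069 (limma, adjusted p = 0.998) changed sign in 10 of 17 alternatives, which ran from -0.29 to 0.66. The receptor MC4R had 171 in Veh (86 to 303) and 150 in sGC (117 to 174; limma, adjusted p = 0.909), with a log2 fold change of -0.09 that ran from -0.31 to 0.15. In F2 and F3, 4 of the 5 were tested, with medians of 0.01 and -0.02.

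In F3, the marker sums of other cell types were alike or slightly shifted between groups. Mural markers (5 of 5 listed) ran from 5297 to 6019 in Veh and from 5754 to 6652 in sGC. Microglia markers (5 of 6 listed) ran from 2713 to 3424 and from 2963 to 3587. The choroid plexus list (4 of 6 listed, TTR and AQP1 not among them) was the one list without overlap, at 672 to 813 in Veh and 640 to 669 in sGC. The single epithelial marker listed, CDH1, ran from 86 to 191 and from 78 to 218. The part of these cell types in the F3 level of SDCBP2 was not tested.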

How the data were processed

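RNA from PVN micropunches of 32 female guinea pigs was analysed. Per the labels and the study's methods, poly(A) libraries (TruSeq V2, not stranded) were sequenced in single reads, aligned to cavPor3 and counted on genes with GenomicAlignments. The authors corrected the 2 F3 batches with ComBat, removed outliers by Cook's distance, normalized by residuals with RUVSeq and deposited the results as whole numbers. The values the authors deposited are thus a score derived from read counts and not reads, so no count model was used and counting error cannot be given. In each table, 1 (F1, F2) or 2 (F3) directions of variation between animals were nearly empty. The deposited tables also hold the authors' own edgeR comparison, which was not used. The 2 re-sequenced F3 Veh libraries were not analysed here.

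Genes averaging at least 10 were fitted in each table on the log2 scale after adding 1. The fit used lmFit and eBayes (trend) of limma 3.58.1 under R 4.3.3, with Benjamini-Hochberg adjustment over all genes and a threshold of 0.05. Samples were not rescaled. The F1 and F2 effects were compared with an interaction term. The procedure was tested on simulated data, in which each gene varied on its own. Variation shared between genes, which these data hold, was not simulated. Named genes were the 6 members, the flanking genes, the 5 genes most like SDCBP2 in F3 and, from each list, the genes under the threshold in F1 or F2, or otherwise the highest and lowest F1 fold change at a mean of at least 50. The members and lists were chosen with earlier results of these data known. Alternatives were other scalings, pseudocounts and filters, leaving out each animal, and the F3 batch. The interaction of NRXN3 and COL18A1 was read after their values were seen. NFASC, NRXN2, ACTN4, CASK, PRKCA, GPC5, HSPG2, GLCE, NDST1, FGF13, NRP1 and SLIT2, named for their calls with size factors, were also chosen after their values were seen. All 6 members matched RefSeq symbols of mCavPor4.1. p-values measure the spread between single animals that was left after the authors' normalization. The fit took no account of the nearly empty directions, so p-values and standard errors may be too small and intervals too narrow. 1 gene of a marker list is not reported here.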

Additional observations from a re-analysis of the deposited data

Results flagged for a closer look

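Among 34 groups of 5 or 6 animals, 3 held an animal far from the others by Dixon's criterion on the log2(value + 1) scale, where chance gives about 1 in 20 groups, or 1.7. In F2 Veh, SDCBP2 in SGM29 was 8.17 (288 normalized counts), beside 64 to 95 counts in the other 4 animals. In F3 sGC, SDC1 in SGM2 was 4.39 (20 normalized counts), beside 14 to 16 in the other 5. In F1 sGC, SDC3 in SGM20 was 13.35 (10442 normalized counts), beside 13093 to 13787 in the other 4.

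SDC2 had opposite signs in F2 and F3 on the deposited scale. All 5 F2 sGC animals were below the F2 Veh mean and all 6 F3 sGC animals above the F3 Veh mean, and the F2 log2 fold change minus the F3 one was -0.19. The F2 value of -0.094, beside a median of -0.076 for all genes, was -0.020 with size factors, -0.0099 with equal totals and -0.0055 with quantile normalization. This difference was not tested, since the F3 comparison selected the family.

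COL18A1 was higher in sGC in F1 and lower in F2, and the difference of the log2 fold changes, 1.36, passed the interaction test (limma, adjusted p = 0.0402). The F1 values of COL18A1, a vessel gene, were taken from the same animals as the vessel marker sums, among which SGM4 was highest. The part of vessel cells in the difference was not tested. This difference missed the threshold without 13 of the 20 animals, each left out in turn, and with size factors or equal totals. Without SGM4 it was 1.07 (adjusted p = 0.0444).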

How the results depend on the processing

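The tables differ in spread, and the F1 and F2 totals were not equalized, so the precision differs between them. No paired analysis was possible because no groups that were compared share animal numbers. In F1, 78 genes passed on the deposited scale, 2058 with median-of-ratios size factors, 1943 with totals made equal and 2083 with quantile normalization, and 15 (without Veh SGM15) to 474 (without Veh SGM7) when 1 animal was left out. In F2, 0 passed, with 42 under quantile normalization, 17 among genes averaging 50 or more and 0 to 114 (without Veh SGM28) when 1 animal was left out. In F3, 6 passed, with 2 in the first sequencing batch, 3 with the batch as a covariate and 1 to 15 (without sGC SGM18) when 1 animal was left out. The cause of these shifts was not tested.

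With size factors, equal totals and quantile normalization, in that order, the F1 log2 fold change of SDCBP turned to -0.0596, -0.0538 and -0.0775 and that of NSFL1C to -0.0341, -0.0284 and -0.0347. SDCBP2 in F1 turned to -0.0278 with quantile normalization. F1 minus F2 turned to -0.0217 and -0.0258 for SDCBP and to -0.00555 and -0.00962 for SDC3 with size factors and equal totals.

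Leaving out 1 animal, the F1 value of SDCBP ran from -0.0707 to 0.0757, of SDCBP2 from -0.0759 to 0.305, of SDC1 from -0.20 to 1.08, of SDC3 from -0.108 to 0.025, of FKBP1A from -0.198 to 8.12e-05, of NSFL1C from -0.0263 to 0.111, of SPOCK3 from -0.152 to 0.00475, of EFNB3 from -0.162 to 0.0778 and of ADAM10 from -0.0685 to 0.0487. In F2, SDC4 ran from -0.0511 to 0.0841 and NRXN3 from -0.107 to 0.282. POMC in F1 ran from -0.29 to 0.66 over all alternatives and MC4R from -0.31 to 0.15. None of these values was called on the deposited scale. The F1 minus F2 difference of COL18A1 kept its direction (1.07 to 1.52) but missed the threshold without F1 Veh SGM3, SGM11, SGM15 or SGM19, F1 sGC SGM8, F2 Veh SGM22, SGM23, SGM27 or SGM29, or F2 sGC SGM21, SGM24, SGM25 or SGM26, and with size factors or equal totals.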
